A study of Danio rerio with 10 samples.

Results

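Gene expression was described in erythroid cells of zebrafish embryos that served as the siblings of mutants in a study of the splicing factor gene sf3b1. All 5 libraries titled as siblings were taken, of 10 in the series. They are named siblings 2, 3, 4, 5 and 6 after the numbers in their titles, and values per library are given in that order. The embryos were 24 hours post fertilization, and the cells were isolated as positive for Gata1, a transcription factor of the red cell lineage. The labels do not describe the reporter or antibody behind that selection, how many embryos or cells went into a library, or whether libraries came from separate clutches. They also do not say whether the siblings included carriers of the mutant allele. Sibling 2 is wild type by title but is tagged as sf3b1 mutant in its genotype field. Some results are therefore given with and without it, while means and SDs of single genes include it. Its sf3b1 level was 41.0 FPKM, inside the 36.3 to 43.9 FPKM of the other siblings (the gene lies on chromosome 9, 32350877 to 32366371, of the GRCz10 build). An RNA level does not show which allele was carried, so the genotype of sibling 2 stays unsettled.

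Primitive red cells of the zebrafish embryo arise from lateral mesoderm that gathers above the yolk as the intermediate cell mass, and enter circulation as a nearly synchronous cohort. Gata1, with partners such as Tal1, Lmo2 and Klf1, switches on the globin, heme, iron and membrane genes that fill the cell with hemoglobin. Fish have separate embryonic and adult globin genes, which sit as alpha and beta genes side by side in the same clusters.

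The values are FPKM, fragments scaled for transcript length and for library size, which are per length and so can be set side by side between genes. RNA was total RNA depleted of ribosomal RNA, so transcripts without a poly(A) tail are present. FPKM summed to between 345317 (sibling 2) and 422870 (sibling 5) per library, and 20843 to 21595 table rows were above 0. The sum of sibling 5 includes 43235 FPKM of the large mitochondrial rRNA row, listed at 0 in the other siblings. That row lowers the shares of all FPKM held by other classes in sibling 5. Absolute depth is unknown, and low values put the depth relative to sibling 2 at 0.746 (sibling 5) to 1.1 (sibling 6). On the first principal component, which held 41.9% of the variance of log2(FPKM + 1), sibling 2 lay at 48.5 and sibling 6 at -34.1, with siblings 3, 4 and 5 at -5.47, -13.3 and 4.44. On the second (23.5%), siblings 3 and 5 lay at 25.3 and 24.8 and the others at -17.8 to -15.9. Exact zeros can be failed estimates: 27 rows averaging 100 FPKM or more were listed at 0 in some sibling, 2 of them rows of nuclear genes.

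The 4 genes that mark the cells were all present at high rank among 29408 rows of nuclear genes. hbae3 and hbbe3, embryonic alpha and beta globin, ranked 1 and 2 by mean FPKM. alas2, the first enzyme of heme synthesis in red cells (chromosome 8, 21321758 to 21338179), ranked 318 with 39.6, 115, 119.8, 82.8 and 175 FPKM. gata1a (chromosome 11, 25174298 to 25181240) ranked 469 with 34.4, 88.4, 73.6, 64.2 and 92.8 FPKM. Sibling 2 was the lowest library for each of the 4 genes and sibling 6 the highest.

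Embryonic globins led the rows of nuclear genes by mean FPKM, and their level varied widely between libraries. In sibling 2 actb2, a beta actin, exceeded every globin row, at 2939 FPKM. hbae3 (ENSDARG00000079305, chromosome 3, 54891985 to 54893256) had 2257, 4824, 6794, 6346 and 11309 FPKM, a mean of 6306 ± 3311 FPKM (SD, n = 5). hbbe3 (ENSDARG00000038147, chromosome 12, 20217539 to 20218669) had 2017, 5809, 7043, 3773 and 8800 FPKM, a mean of 5488 ± 2668 FPKM (SD, n = 5). Their order depended on the library: hbae3 was 1.18 ± 0.33 times hbbe3, below 1 in siblings 3 and 4 and at 1.68 in sibling 5, so their means do not differ beyond the spread. Together the 2 genes held 79.6 ± 4.2% of embryonic globin FPKM. All 11 embryonic globin rows were lowest in sibling 2 and highest in sibling 6, and their sum was 5235, 13248, 18507, 11874 and 26368 FPKM.

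Behind the leading pair came the beta genes of the chromosome 3 cluster. hbbe1.3 averaged 1336 ± 1104 FPKM, hbbe1.1 761.9 ± 250 FPKM and hbbe1.2 540.4 ± 506 FPKM (SD, n = 5 each), with ranges that overlap. hbbe1.2 had 17.5, 341.7, 967.8, 195.3 and 1179 FPKM, so its ratio to hbbe1.1 ran from 0.0402 in sibling 2 to 1.14 in sibling 6, with a mean of 0.595 in all siblings and 0.734 without sibling 2. The rows of these tandem copies overlap on the genome and their sequences are close, so how reads were shared between them is uncertain. Of the alpha genes, hbae1.3 averaged 222.8, hbae1.2 114.7 and hbae1.1 55.1 FPKM, and the chromosome 12 genes hbae4 and hbae5 40.7 and 20.6 FPKM. hbbe2, the other beta gene of chromosome 12, averaged 160.5 FPKM. Alpha globin thus came almost wholly from chromosome 3, with 0.966 ± 0.249% from chromosome 12, while 70.09 ± 5.31% of beta globin came from chromosome 12 (SD, n = 5). Summed alpha over summed beta was 0.829, 0.658, 0.662, 1.28 and 0.851, a mean of 0.856 ± 0.254 in which sibling 5 alone lay above 1.

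Adult globins were nearly silent. The 5 adult rows summed to 1.06 ± 0.62 FPKM, against 15046 ± 7901 FPKM for the embryonic rows (SD, n = 5 each). hbaa1, adult alpha globin, had 0.603 FPKM on average and was above 0 in all 5 siblings. hbba1, adult beta globin, has 2 rows, of which the higher was listed at 0 in siblings 2 and 3 and averaged 0.368 FPKM, and the other was listed at 0 throughout. hbaa2 and hbba2 were each above 0 in 1 library.

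**Figure D1:**
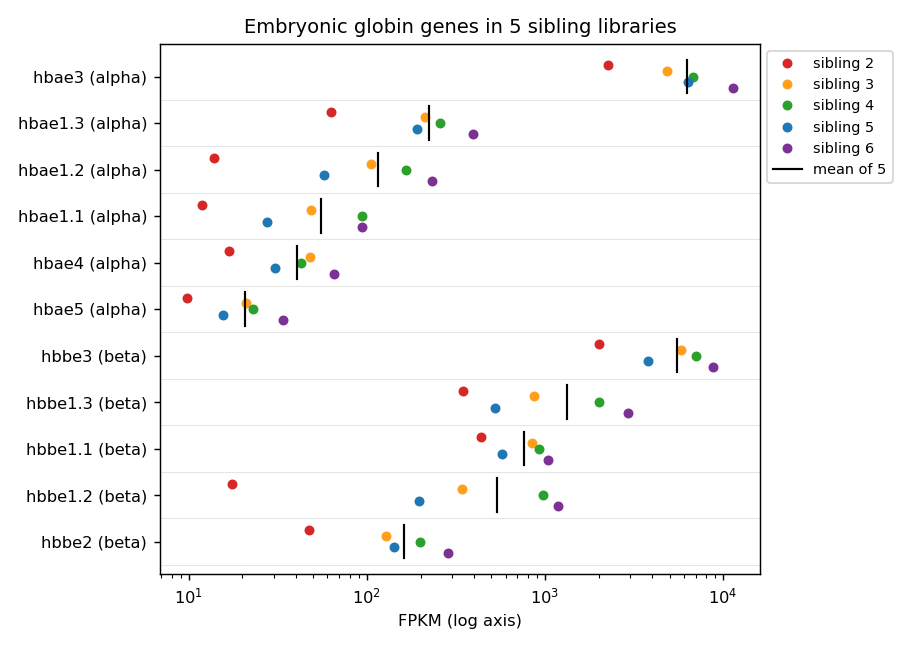
FPKM of the 11 embryonic globin rows on a log axis, alpha genes above beta genes, with 1 point per sibling library and a bar at the mean of 5. Sibling 2 is the lowest point and sibling 6 the highest in every row, and hbae3 and hbbe3 lie above every other gene of their chain in each library.

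The next ranks were filled by genes of the cytoskeleton, of protein synthesis and of protein folding. actb2 and actb1, the cytoplasmic beta actins, averaged 2985 ± 428 and 1963 ± 268 FPKM and ranked 3 and 4. eef1a1l1 and eef2b, which carry tRNAs to the ribosome and move it along the message, averaged 1909.9 ± 397 and 1709 ± 395 FPKM. hspa8, the constitutive member of the Hsp70 family, averaged 1782 ± 225 FPKM, and pabpc1a, the cytoplasmic poly(A) binding protein, 1535 ± 197 FPKM (SD, n = 5 each). Of the 30 highest rows 14 encode cytosolic ribosomal proteins, led by rps6 with 1264 ± 256 FPKM and rplp0 with 1153 ± 263 FPKM, while 4 are globins and 3 histones. The remaining rows include hsp70l at rank 9, hsp90ab1 at rank 17 with 963.5 ± 292 FPKM, and si:ch211-222l21.1 at rank 11 with 1281 ± 243 FPKM. All 30 stayed in that group without sibling 2.

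Expression was spread over many genes despite the globins. Of the nuclear gene rows 12732 had a mean of at least 1 FPKM, 3513 at least 10, 336 at least 100 and 16 at least 1000, while 5086 were listed at 0 in all 5 siblings. The 10 highest rows held 10.9 ± 2.57% of nuclear gene FPKM, the 100 highest 33.4 ± 3.16% and the 1000 highest 65.4 ± 3.10% (SD, n = 5). For the 10 highest rows the share was lowest in sibling 2 (7.46%) and highest in sibling 6 (14.6%).

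By class, globins held 1.52, 3.53, 4.91, 2.81 and 7.08% of all FPKM, a mean of 3.97 ± 2.13% that became 4.58% without sibling 2. Of nuclear gene FPKM alone globins held 6.14 ± 2.88%, the 85 rows of cytosolic ribosomal proteins 12.7 ± 1.09% and histones 4.15 ± 0.79% (SD, n = 5 each). Ribosomal proteins therefore held more than globins in each library. Listed erythroid genes other than globins (heme, membrane, iron, antioxidant and transcription factor lists) held 2.33 ± 0.53% and markers of other cell types 1.81 ± 0.45% of nuclear gene FPKM. Rows on both kinds of list were counted as erythroid. Rows with a clone name or no symbol that joined no class held 14.0 ± 1.52%, and 21 of the 100 highest rows were among them. Rows were classed by symbol, so the class shares leave out any members among those rows. In a bulk library a lower share can come from fewer cells of a type or from less RNA per cell, and these cannot be told apart.

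Noncoding RNAs took a large part of the total. The 81 rows of the signal recognition particle RNA, which guides secreted proteins to the endoplasmic reticulum, held 20.5 ± 1.05% of all FPKM, and the rn7sl1 row alone had 41412 ± 6435 FPKM. FPKM divides by length, so a single fragment weighs more on short rows: on rows of 72 bases the smallest value above 0 was 463 to 1704 FPKM, depending on the library. rn7sk, an RNA that holds the elongation factor P-TEFb inactive, averaged 4382 ± 1278 FPKM. Mitochondrial rRNA held 7.85 ± 4.70%, in which the large rRNA row was listed at 0 in 4 siblings and at 43235 FPKM in sibling 5. The small rRNA row had 28430.0, 31298, 19746, 20279 and 8927 FPKM, highest in sibling 3 and lowest in sibling 6. The nuclear rRNA row, with 2391, 2890, 1668, 2369 and 360 FPKM, had the same highest and lowest sibling. Ribosomal RNA was depleted before library preparation, so these values need not give the rRNA content of the cells. The part of depletion in them was not tested.

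Mitochondrial messengers held 1.68 ± 0.28% of all FPKM, and all 13 were above 1 FPKM. mt-co3 and mt-co1, subunits of cytochrome c oxidase, were the highest at 1084 ± 183 and 1072 ± 280 FPKM, followed by mt-atp6 at 818 ± 202 FPKM. mt-co1 ran from 1542 FPKM in sibling 2 to 824 FPKM in sibling 6, while mt-co3 was lowest in sibling 2 and highest in sibling 6. The lowest messenger was mt-nd3, a subunit of complex I, with 56.4 ± 18.3 FPKM (SD, n = 5).

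**Figure D2:**
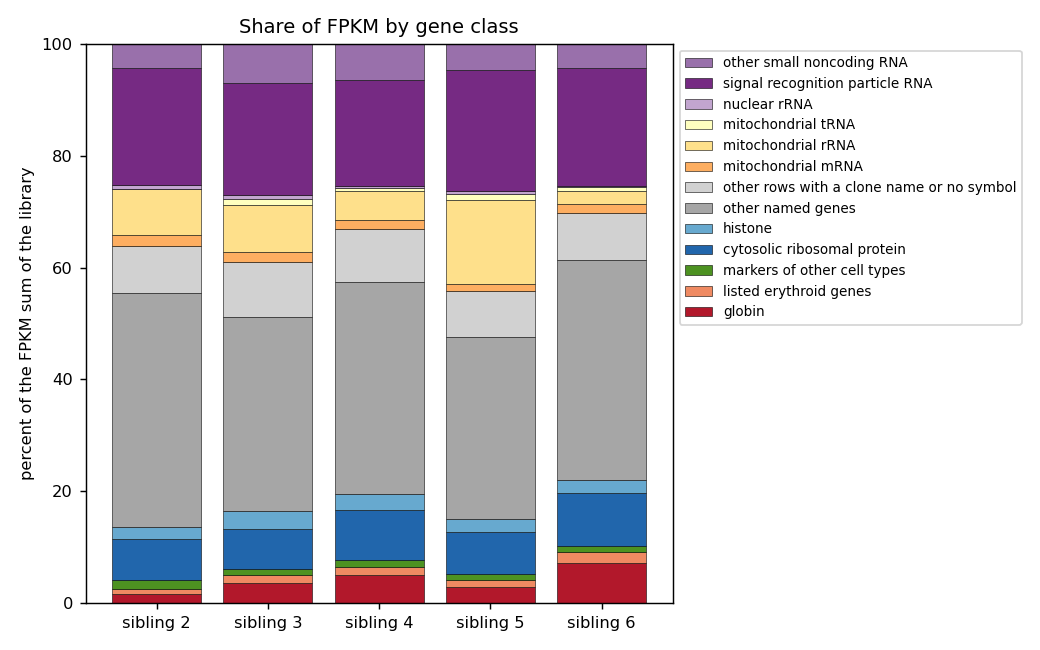
Stacked bars give the percent of each sibling library's FPKM sum held by 13 gene classes. Globins run from 1.52% in sibling 2 to 7.08% in sibling 6, and signal recognition particle RNA holds about the same share in every library.

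The heme pathway was expressed in full, at unequal levels. Of 18 rows listed for heme synthesis 16 had a mean of at least 1 FPKM, and their sum was 854.3, 1661, 1775, 1519 and 2419 FPKM. cpox, which oxidises coproporphyrinogen, was the highest with 249.8, 478, 487, 479.6 and 647 FPKM. urod, the step before it, averaged 375 ± 146 FPKM, and hmbsb, hydroxymethylbilane synthase, 193 ± 71.4 FPKM. alas2 averaged 106.5 ± 49.98 FPKM, alad 73.7 ± 35.2, fech, which inserts the iron, 49.4 ± 20.3, ppox 43.6 ± 15.9 and uros 32.4 ± 13.9 FPKM (SD, n = 5 each). cpox and urod exceeded alas2, fech, ppox and uros in each of the 5 libraries. alas1, the housekeeping counterpart of alas2, averaged 29.9 ± 6.15 FPKM and, at 39.6 FPKM, was highest in sibling 2, where alas2 was at the level of alas1. Of mitochondrial carriers, slc25a37 (mitoferrin, which imports iron) had 173 ± 53.8 FPKM and abcb10 33.5 ± 13.9 FPKM, while slc25a38b, the glycine carrier, had 2.5 ± 0.99 FPKM.

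Iron genes were led by storage and uptake. fth1a, a ferritin heavy chain, averaged 387.5 ± 146 FPKM and tfr1a, the transferrin receptor, 326 ± 123 FPKM. slc11a2, which moves iron out of the endosome, averaged 96.1 ± 42.9 FPKM, ncoa4, the receptor for ferritin turnover, 75.4 ± 25.3 FPKM and steap3, an endosomal ferrireductase, 17.8 ± 7.02 FPKM (SD, n = 5 each). slc40a1, the iron exporter ferroportin, stayed at 4.41 ± 0.90 FPKM and was lowest of these in every library. The list summed to 590.1, 1037, 1178, 896.3 and 1531 FPKM, with 15 of 20 rows at or above 1 FPKM.

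Membrane genes had 23 of 24 rows at or above 1 FPKM and summed to 425, 797, 849, 813 and 1176 FPKM. slc4a1a, the band 3 anion exchanger (chromosome 3, 19916121 to 19944785), had 49.3, 154, 204, 165 and 348 FPKM, lowest in sibling 2 and highest in sibling 6. sptb, erythroid beta spectrin, averaged 118 ± 40.7 FPKM, epb41b, of the membrane skeleton, 78.6 ± 23.2 FPKM, and the water channel aqp1a.1 81.7 ± 23.8 FPKM. The Rh family genes rhag and rhd averaged 33.7 ± 17.6 and 32.76 ± 13.01 FPKM. Ankyrin was low, with ank1a at 2.97 ± 1.94 and ank1b at 1.61 ± 0.73 FPKM (SD, n = 5 each).

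Among red cell enzymes cahz, a carbonic anhydrase, had 68.6, 146, 190.3, 145 and 341 FPKM. prdx2, a peroxiredoxin, averaged 48.1 ± 21.9 FPKM, gpx4b, a glutathione peroxidase, 58.7 ± 10.6 FPKM, and sod1, superoxide dismutase, 7.10 ± 1.24 FPKM. cat, catalase, averaged 0.73 FPKM and bpgm, which makes the phosphate that lowers oxygen affinity in mammals, 1.29 ± 0.41 FPKM. Glycolysis genes summed to 290.3 ± 26.3 FPKM and varied less than any erythroid list, between 254 and 319 FPKM. aldoaa, an aldolase, led with 53.3 ± 7.40 FPKM, hk1, hexokinase, had 41.5 ± 2.56 FPKM and gapdhs 31.7 ± 3.80 FPKM, more than gapdh at 8.54 ± 3.28 FPKM (SD, n = 5 each).

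The transcription factors of the lineage covered a wide range. znfl2a was the highest row of its list with 357, 568, 485, 796 and 329 FPKM. klf17, a Krüppel-like factor of blood and hatching gland, had 149, 409, 235, 259.6 and 265 FPKM, and gfi1b, a repressor in the red cell lineage, averaged 165 ± 53.1 FPKM. gata1a averaged 70.7 ± 23.3, drl 63.8 ± 9.24, tal1 55.2 ± 15.6, klf1 31.2 ± 14.1, zfpm1, a cofactor of Gata1, 30.1 ± 3.11 and lmo2 27.0 ± 7.38 FPKM (SD, n = 5 each). epor, the receptor for erythropoietin, averaged 39.1 ± 11.7 FPKM and its kinase gene jak2a 23.9 ± 8.09 FPKM. hemgn, a Gata1 target, spread widest among the factors above 20 FPKM, at 27.5, 69.7, 82.1, 68.7 and 166 FPKM. gata2a and myb, which mark earlier blood cells, stood at 18.2 ± 2.72 and 13.7 ± 2.58 FPKM, while kita averaged 0.74 FPKM. Unlike the heme and membrane lists, the summed factors did not peak in sibling 6: they had 982, 1771, 1537, 1742 and 1553 FPKM. That sum leans on znfl2a, its highest row, which was lowest in sibling 6. Counted by row, sibling 6 was the highest for 11 of the 25 rows at or above 1 FPKM, the most of any library. It was the highest for 28.6% of all nuclear gene rows at that level. After median of ratios scaling siblings 3 and 6 were each the highest for 8 of the 25.

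Cell division genes were active, with 34 of 35 rows at or above 1 FPKM and a sum of 1047, 1079, 1394, 1236 and 1697 FPKM. pcna, the clamp of DNA polymerase, averaged 206 ± 48.1 FPKM, mcm2, of the replicative helicase, 109 ± 21.9 FPKM and ccnd1, cyclin D1, 105 ± 42.1 FPKM. mki67 had 66.4 ± 5.71 FPKM, a coefficient of variation of 8.59%, and cdk1 8.65 ± 3.58 FPKM (SD, n = 5 each). Sibling 6 was highest for 26 of the 34 rows and sibling 2 or 3 lowest for 29 (16 and 13). Of all 12732 nuclear gene rows at that level, sibling 6 was highest for 3646. Sibling 2 was lowest for 2681 of them and sibling 3 for 3607. After median of ratios scaling sibling 6 was highest for 22 of the 34, sibling 2 lowest for 20 and sibling 3 for 6. The count for sibling 3 thus depended on the scale. Transcripts listed as maternal or of the yolk were low: of 15 listed rows zar1 at 8.41 ± 3.96 FPKM was the 1 row above 1 FPKM. The vitellogenin genes vtg1 and vtg2 were at 0.011 and 0.008 FPKM.

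Heat shock and immediate early genes were high in all siblings and varied between them. This list was drawn up after hsp70l had been seen at rank 9. All 32 rows were at or above 1 FPKM and 12 at or above 100 FPKM, and they summed to 8539, 7864, 4154, 7813 and 4937 FPKM, or 2.83% of nuclear gene FPKM on average. hsp70l, a stress-inducible member of the Hsp70 family, had 1531, 1943, 734, 1560 and 1062 FPKM. hspb1, a small heat shock protein, had 168, 68.3, 33.6, 74.5 and 30.4 FPKM, and bag3, a co-chaperone, 82.5, 47.8, 8.5, 46.7 and 14.2 FPKM. fosab and junbb, subunits of the transcription factor AP-1, averaged 581 ± 159 and 486 ± 188 FPKM (SD, n = 5 each). Siblings 2, 3 and 5 were high and siblings 4 and 6 low for hsp70l, hspb1, bag3 and junbb. Siblings 3 and 5 also had the lowest relative depth (0.79 and 0.746), but sibling 2 did not, and the part of depth in the result was not tested.

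Markers of other cell types were found at levels from near 0 to that of erythroid genes. Neutrophil markers had 11 of 14 rows at or above 1 FPKM and summed to 196, 239, 277, 312 and 567 FPKM. Among them mpx, myeloperoxidase, had 32.8, 33.2, 39.0, 62.1 and 116 FPKM, lyz, lysozyme, 33.2, 55.3, 55.9, 64.7 and 102 FPKM, and npsn 36.7, 51.4, 70.15, 65.2 and 217 FPKM. Sibling 6 was the highest for all 3 genes. The macrophage list was lower, at 89.2 to 135 FPKM, with mfap4 at 34.4 ± 3.56, mpeg1.1 at 16.2 ± 3.49 and csf1ra at 14.6 ± 3.98 FPKM, while marco averaged 0.5 FPKM. Factors shared by leukocytes were higher: spi1b had 159, 92.5, 87.0, 196 and 86.2 FPKM, and cebpb averaged 132 ± 23.3 FPKM (SD, n = 5).

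Thrombocyte markers were uneven. f13a1b, a coagulation factor XIII chain, averaged 158 ± 26.0 FPKM and gp1bb, a platelet glycoprotein, 25.7 ± 11.5 FPKM. The defining genes itga2b and mpl averaged 0.2 and 0.37 FPKM, and 8 of 15 rows reached 1 FPKM. The stem and progenitor list had ikzf1 at 74.6 ± 24.9 FPKM and the higher runx1 row at 1.85, 7.81, 10.5, 10.7 and 2.89 FPKM, while rag1 averaged 0.011 FPKM (SD, n = 5). Endothelial markers were broadly present, with 29 of 31 rows at or above 1 FPKM but none at 100: fli1a averaged 28.4 ± 2.08, cdh5 17.5 ± 3.48 and kdrl 14.4 ± 3.64 FPKM (SD, n = 5 each). Their sum was highest in sibling 2 and lowest in sibling 6, with 487, 383, 371, 323 and 258 FPKM.

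Markers of muscle, notochord, epidermis and heart were highest in sibling 2. Skeletal muscle markers summed to 681, 274, 282, 308 and 154 FPKM and notochord and cartilage matrix markers to 517, 193, 316, 266 and 127 FPKM. actc1b, a striated muscle actin, had 177, 41.8, 51.0, 39.6 and 20.8 FPKM, col2a1a, type II collagen, 86.4, 33.97, 65.0, 43.3 and 15.7 FPKM. Muscle transcripts typical of mature fast fibres were low: myhz2 averaged 0.61, tnnt3a 0.27 and pvalb1 0.35 FPKM, and myod1, the muscle regulator, 0.68 FPKM. Epidermal markers summed to 1160.2, 596, 779, 742 and 580 FPKM, mostly from krt8 at 249 ± 69.4, pfn1 at 138 ± 26.1, krt18 at 117 ± 30.4 and krt4 at 87.1 ± 50.6 FPKM (SD, n = 5 each). krt5, a basal keratin, had 44.5 FPKM in sibling 2 and 4.71 to 10.1 FPKM in the others, and tp63, the regulator of skin, averaged 1.13 FPKM. Heart markers summed to 743, 501, 496, 627 and 317 FPKM, of which cmlc1, a cardiac myosin light chain, gave 227 ± 70.7 FPKM and myl7 63.8 ± 26.3 FPKM (SD, n = 5 each).

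Neural markers (148 ± 35.7 FPKM), yolk and liver markers (101 ± 23.9 FPKM), kidney markers (92.0 ± 17.5 FPKM) and pigment markers (15.7 ± 5.06 FPKM) were lower still. elavl3, a marker of new neurons, averaged 25.6 ± 7.26 FPKM, apoa1b, of yolk and liver lipoprotein, 1.77 FPKM, and none of the pigment rows reached 5 FPKM. The yolk and liver sum came from few rows: of 33 listed, 8 averaged at least 1 FPKM and 4 at least 5 FPKM, while 6 were listed at 0 throughout. The hatching gland list summed to 363 ± 85.0 FPKM, but klf17 and xbp1 gave most of it, and the hatching enzyme genes he1a and he1b averaged 0.476 and 0.29 FPKM (SD, n = 5 each). The hatching gland sum was lowest in sibling 2, at 283 FPKM against 307 to 501 FPKM in the others. Of its 4 rows at or above 1 FPKM, klf17 was the only 1 lowest there. klf17 is also counted above among the erythroid factors, so that order does not describe the hatching gland alone. The ionocyte and mucous cell list ran from 97.1 to 138 FPKM, highest in sibling 6. Markers of other cell types, without rows also on an erythroid list, together held 1.64% of all FPKM in sibling 2 and 0.956 to 1.1% in the others. The mean of all siblings was 1.14% and became 1.02% without sibling 2. Of nuclear gene FPKM alone these markers held 2.57% in sibling 2 and 1.41 to 1.86% in the others. In sibling 2 the heme list was 0.463 times, the membrane list 0.468 times, the skeletal muscle list 2.68 times and the notochord list 2.29 times the mean of the other 4 siblings. Without sibling 2 the mean sum changed from 1646 to 1844 FPKM for heme and from 812 to 909 FPKM for membrane. It changed from 340 to 254.5 FPKM for skeletal muscle and from 283 to 225 FPKM for notochord. The part of these markers in the erythroid differences was not tested.

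**Figure D3:**
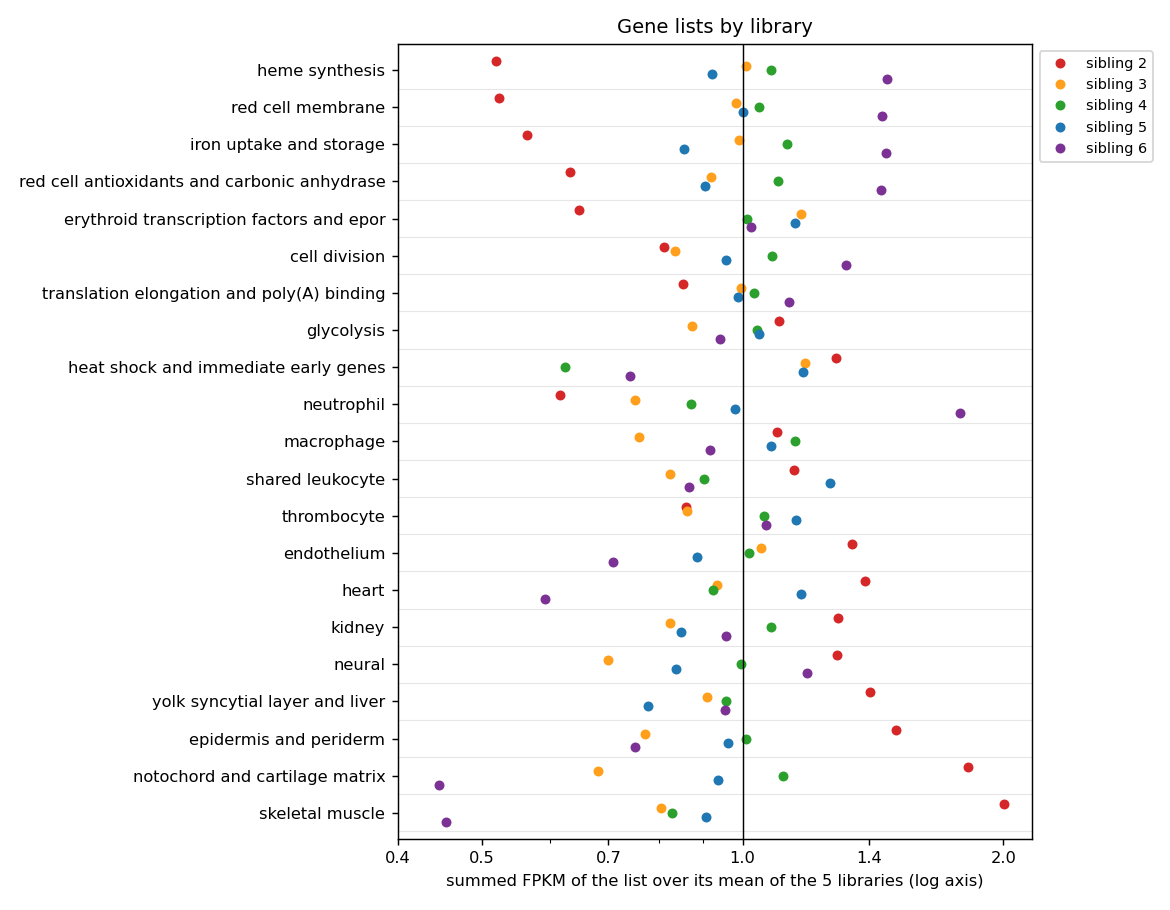
Summed FPKM of 21 gene lists in each sibling library over the list's mean of 5 libraries, on a log axis with a line at 1. Sibling 2 lies leftmost for the 5 erythroid lists and also for the cell division, translation, neutrophil and thrombocyte lists. It lies rightmost for muscle, notochord, epidermis, heart, endothelium, kidney, neural, yolk and liver, glycolysis and heat shock lists. Sibling 6 lies leftmost for muscle, notochord, heart, epidermis and endothelium. It lies rightmost for heme, membrane, iron, antioxidant, cell division, translation and neutrophil lists.

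The spread between libraries was moderate for most genes and wide for globins. Over the 12732 nuclear gene rows averaging 1 FPKM or more the median coefficient of variation was 27.0%, and 23.5% without sibling 2. It was 29.9% between 1 and 10 FPKM, 20.6% between 10 and 100, 23.1% between 100 and 1000 FPKM, and 19.6% over the 16 rows at or above 1000 FPKM. Globins had a median of 53.5%, markers of other cell types 37.1%, listed erythroid genes 35.4%, histones 22.3% and cytosolic ribosomal proteins 20.3%. Sibling 2 held the highest value for 32.6% of rows, sibling 6 for 28.6% and sibling 3 for 7.91%. After median of ratios scaling these shares were 28.0, 23.8 and 16.5%, so the low share of sibling 3 depended on the scale.

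Genes with the widest spread, among rows averaging 20 FPKM or more whose symbol is not a clone name, came from several of the groups above. epha4b, an Eph receptor, had the highest coefficient, 144%, with 4.47, 86.8, 29.8, 1.81 and 3.31 FPKM, and stood high in siblings 3 and 4. actc1b (95.4%), hbbe1.2 (93.6%), npsn (83.2%), bag3 (74.8%) and hspb1 (74.2%) followed with osbp, an oxysterol binding protein, which had 65.1, 7.94, 54.3, 6.61 and 38.9 FPKM. osbp was low in siblings 3 and 5, which lie together on the second principal component. The steadiest genes were anp32a, a nuclear phosphoprotein, with 123, 118, 119, 120.4 and 123 FPKM and a coefficient of 1.69%, and mbd3a, a methyl-CpG binding domain protein, at 2.06%. faf2, pdap1a, bop1, cul3a and sp3a also stayed under 5%.

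**Figure D4:**
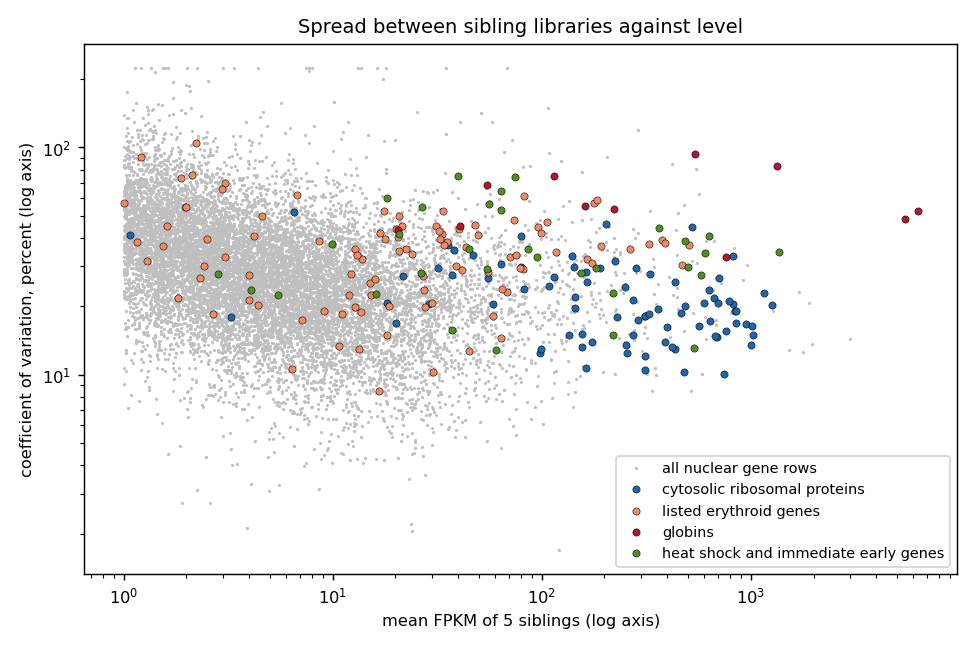
Coefficient of variation over 5 siblings against mean FPKM, both on log axes, for nuclear gene rows averaging 1 FPKM or more (grey) and 4 groups. Globins sit above most rows of the same level, at a median of 53.5%, and cytosolic ribosomal proteins sit lower, at 20.3%.

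Zebrafish carry many gene pairs from a whole-genome duplication in the ancestor of teleost fish, named with a last letter a or b. Pairs were taken by symbol, so not all of them need come from that duplication. For 1563 pairs the ratio of gene a to gene b was taken within each library as log2((a + 1)/(b + 1)) of FPKM. This ratio was tested with limma for a difference of at least 2-fold, which is at least 1 on that scale. Gene a was called higher in 436 pairs (27.9%) and gene b in 350 pairs (22.4%), together 50.3% of those tested at an adjusted p under 0.05. The median absolute log2 ratio was 1.38, and gene a was higher in all 5 siblings for 682 pairs and gene b for 594. In 448 of the 786 called pairs the lower gene averaged under 1 FPKM. Since a pair enters with either gene expressed, this is a description of all pairs with a summed mean of at least 2 FPKM and not of pairs in which both are active.

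Several erythroid genes were expressed almost wholly from 1 gene of a pair. Pairs with a member in the erythroid, glycolysis, cell division, translation or maternal lists numbered 37 (blvra and blvrb, which are separate enzymes, among them). Gene a was called higher in 20 of them and gene b in 7, against the 27.9 and 22.4% of all pairs. A pair enters when either gene is listed, and the lists were chosen with earlier results of these data known. These counts therefore describe the listed pairs and are no result about erythroid pairs. fth1a had 387.5 ± 146 FPKM and fth1b 0.397 FPKM, a log2 ratio of 8.03 (SE 0.18, limma adjusted p = 7.07e-10). tfr1a had 326 FPKM and tfr1b 1.54 FPKM (log2 ratio 6.94), and slc4a1a 184 FPKM and slc4a1b 1.16 FPKM (6.2). gata1a had 70.7 FPKM and gata1b 0.116 FPKM, with gata1b listed at 0 in siblings 2 and 3 (log2 ratio 5.93, limma adjusted p = 4.84e-09). gata2a (log2 ratio 4.1 over gata2b), klf6a (4.16 over klf6b) and jak2a (2.28 over jak2b) were also called higher than their copies.

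Other pairs leaned on gene b. hmbsa had 10.3, 24.7, 19.2, 13.1 and 36.3 FPKM and hmbsb 101, 173, 195, 197 and 300.3 FPKM, with no overlap between the genes and a log2 ratio of -3.21 (SE 0.15, limma adjusted p = 2.00e-07). gpx4a had 11.1 and gpx4b 58.7 FPKM (log2 ratio -2.31), and foxo3a had 2.55 and foxo3b 12.8 FPKM (-1.97). tmem14ca averaged 4.2 and tmem14cb 0.777 FPKM and was the higher in all 5 siblings, but the pair was not called at 2-fold (log2 ratio 1.52, limma adjusted p = 0.0657). It was called without sibling 2 (log2 ratio 1.8, limma adjusted p = 0.0045) and with 0.1 added before the log in place of 1 (2.35, limma adjusted p = 0.0102), and over all alternatives its adjusted p ran from 0.000214 to 1. slc25a38a and slc25a38b, at 0.566 and 2.5 FPKM, were not called either (log2 ratio -1.15, limma adjusted p = 0.443), but were called with 0.1 added (-2.05, limma adjusted p = 0.0284, in a range over alternatives of 0.000645 to 1). epb41a and epb41b, at 2.43 and 78.6 FPKM, were left out of the test because epb41 was among the stems set aside.

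The widest ratios in either direction included genes outside the erythroid lists. hmga1a, a chromatin protein of dividing cells, had 677 FPKM and hmga1b 0.808 FPKM (log2 ratio 8.60, limma adjusted p = 7.07e-10), and rps8a 522.5 and rps8b 0.448 FPKM (8.39). pabpc1a exceeded pabpc1b, 1535 against 16.9 FPKM (6.48). In the other direction cycsa, etf1a and sumo2a were listed at 0 in all siblings, with cycsb (cytochrome c) at 127, etf1b (a translation release factor) at 75.6 and sumo2b at 62.7 FPKM. Exact zeros can be failed estimates, so the genes listed at 0 need not be silent. tkta averaged 0.007 and tktb, transketolase, 48.2 FPKM, and akap12a averaged 0.214 and akap12b 84.3 FPKM (log2 ratio -6.11).

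Some pairs were expressed alike. tpra and tprb, of the nuclear pore basket, averaged 38.2 and 38.0 FPKM, with a log2 ratio of 0.00 (SE 0.11). pds5a and pds5b, of the cohesin complex and named as separate genes in humans too, averaged 29.0 and 29.8 FPKM. calr3a and calr3b, calreticulins, averaged 81.1 and 76.9 FPKM. actc1a had 104, 34.3, 47.1, 74.8 and 22.9 FPKM and actc1b 177, 41.8, 51.0, 39.6 and 20.8 FPKM: they averaged close to each other while gene a was the higher in siblings 5 and 6 and gene b in siblings 2, 3 and 4. These pairs were chosen for their small ratio, so it is a description.

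**Figure D5:**
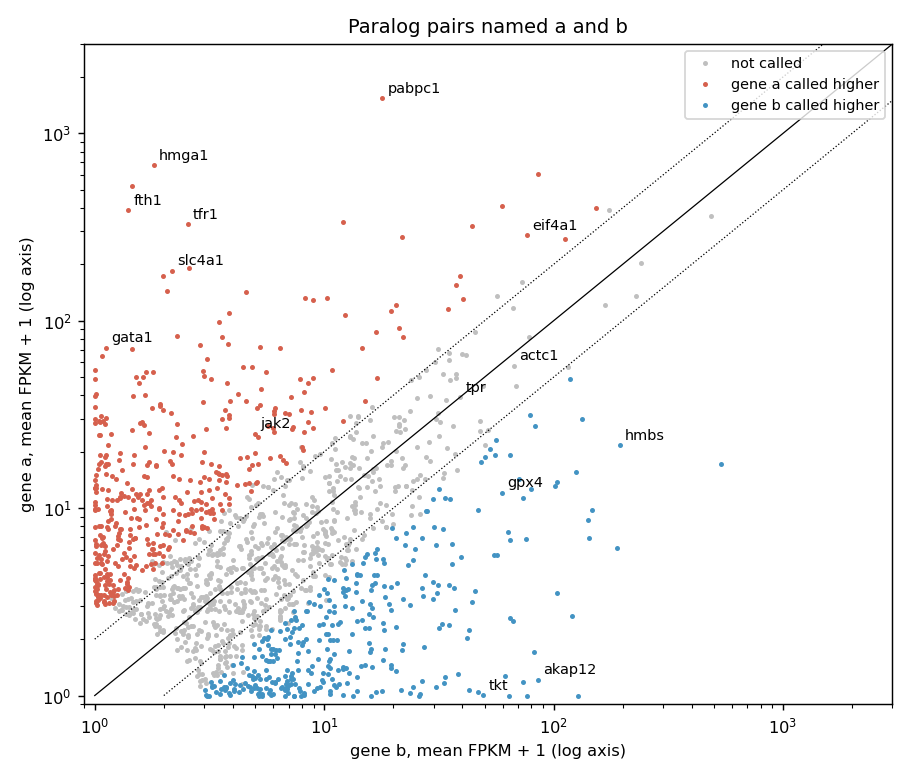
Mean FPKM + 1 of gene a against gene b for 1563 pairs, on log axes, with lines at equal levels (solid) and at 2-fold (dotted). Red points are the 436 pairs with gene a called higher and blue points the 350 pairs with gene b called higher, and the points along the axes are pairs in which the other gene is near 0.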

How the data were processed

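RNA of the 5 sibling libraries was compared within that group alone. FPKM estimated by the authors was deposited for every gene in every library. Per the labels' protocols, rRNA was depleted before stranded library preparation. The submitters' processing notes name GRCz10, Cufflinks 2.2.1, Picard, STAR 2.4.2a and Trim Galore. No source used here says if strand was considered, so reads of overlapping and antisense genes cannot be told apart. The table has 32233 rows for 32103 gene IDs, 130 of which repeat an ID, and no counts, so depth is unknown and no counting error can be given. All per-sample columns matched a title. Starts are 1-based, and 37 of 37 mitochondrial rows then matched RefSeq starts.

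Genes are called by current symbols, which for hemgn and several globins differ from the deposited ones. Rows were ranked by mean FPKM and classed by symbol. Of 652 listed symbols 590 matched by symbol, 24 by another form of it and 38 not at all. Nuclear gene rows leave out small noncoding, rRNA and mitochondrial rows. The coefficient of variation is SD over mean. Paralog pairs are symbols that differ in a last letter a or b. A list of stems that name separate genes removed 116 pairs, but others, such as blvra and blvrb, remained. Pairs with a summed mean of at least 2 FPKM were kept. Their log2 ratios (pseudocount 1) were tested with treat in limma 3.58.1 (R 4.3.3, mean-variance trend, Benjamini-Hochberg over 1563 pairs, threshold 0.05). Tested on simulated data for this comparison, with 1563 pairs run and 50 changed at each size, it called 56% of pairs at a true log2 ratio of 1.5, 92% at 2 and 100% at 3 and at 4. The other 1363 simulated pairs had a true ratio of 0, while 786 of the 1563 real pairs were called. With so few changed pairs the adjusted threshold differs, so these rates need not hold for the real pairs. False calls at the tested limit of 1 were not simulated. P-values set the mean ratio of a pair against the spread between these libraries, which may be technical. They do not cover errors that repeat in every library, such as in transcript length or in reads shared between close copies.

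Named genes are the 30 highest rows, members of the gene lists, the extremes of variation and of the pair ratios, and pairs with a listed member. Members and lists were chosen with earlier results of these data known. Pseudocounts, filters, thresholds, scaling, denominators and each library left out were tried as alternatives. Python 3.11.15, pandas 2.3.3, numpy 2.4.6 and matplotlib 3.10.9 were used.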

Additional observations from a re-analysis of the deposited data

Results flagged for a closer look

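In 8 of 207 values tested, 1 library lay so far from the other 4 that the gap took up over 0.71 of the whole range. Chance gives such a gap in about 1 in 20 groups of independent, normally distributed values, which is more than were found here. The values tested share rows, and some genes were named for their spread, so that rate is only a rough guide. Genes averaging under 1 FPKM were not tested. Sibling 2 stood apart in 6 of the 8. Markers of other cell types held 1.637% of all FPKM there, against 0.956 to 1.1% in the others. Of nuclear gene FPKM alone they held 2.57% there, against 1.41 to 1.86%, and that share was not tested for a gap. The total of sibling 5 includes its large mitochondrial rRNA row, which lowers its share of all FPKM. The yolk and liver list summed to 141.9 FPKM in sibling 2, against 78.8 to 97.0 FPKM, with 8 of its 33 rows averaging 1 FPKM or more. actc1b, a striated muscle actin, had 177.1 FPKM in sibling 2 and 20.8 to 51.0 FPKM in the others. The keratins krt4 and krt5 had 176.1 and 44.52 FPKM in sibling 2, while the others had 55.3 to 78.4 FPKM of krt4 and 4.71 to 10.1 FPKM of krt5. drl, a zinc finger gene of lateral mesoderm, was low there, with 47.63 FPKM against 64.7 to 69.9 FPKM. In sibling 6 npsn, a neutrophil marker, had 217.1 FPKM, against 36.7 to 70.15 FPKM in the others. In sibling 5 the large mitochondrial rRNA row had 43235 FPKM and was listed at 0 in the other 4 siblings.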

How the results depend on the processing

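Named pair ratios and counts were recomputed under other settings. With 5 added before the log in place of 1, gene a was called higher in 211 pairs and gene b in 156. With pairs of a summed mean of at least 10 FPKM the counts were 256 and 197, and for any difference from 0 they were 702 and 624. The median coefficient of variation was 20.8% over rows of at least 10 FPKM and 44.8% with no filter, and the median SD of log2(FPKM + 1) was 0.31. Without small noncoding rows in the total, ribosomal proteins held 10.9% and mitochondrial messengers 2.26% of FPKM. Without mitochondrial rRNA rows, an alternative chosen after seeing the data, signal recognition particle RNA held 22.3%. Leaving out each library in turn gave a median coefficient of variation of 23.5 to 27.5%, 404 to 426 pairs with gene a higher, 327 to 345 with gene b higher, and a globin share of 3.19 to 4.58%. Ratios near 0 changed sign when a library was left out: actc1a over actc1b ran from -0.26 to 0.16, gfi1aa over gfi1ab from -0.25 to 0.19, oaz1a over oaz1b from -0.12 to 0.17, pds5a over pds5b from -0.082 to 0.00098 and tpra over tprb from -0.032 to 0.063. With 0.1 added the counts were 488 and 417. Of the named pairs 6 lost their call with 5 added, foxo3a over foxo3b among them, while calls were gained by 3 with 0.1 added, 3 at 1.5-fold, 6 for any difference and 1 (tmem14ca over tmem14cb) without sibling 2. The cause was not tested. No paired analysis was possible because a single group was analysed. Without counts, depth limits low values in an unknown way.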

Other observations

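Families of the basic machinery held steadier shares of nuclear gene FPKM than globins did. Mitochondrial carriers of the slc25 family held 0.480 ± 0.00801%, with slc25a5, an ADP/ATP carrier, highest at 519 FPKM. Nuclear genes of the respiratory chain held 0.954 ± 0.0592%, with 85 of 97 rows at or above 1 FPKM, and translation initiation factors 1.18 ± 0.0546%, led by eif4a1a at 285 FPKM (SD, n = 5 each). Proteasome subunits held 0.479 ± 0.0417%, and the 7 rows of the chaperonin that folds actin and tubulin 0.336 ± 0.0219%, with cct7 highest at 172 FPKM. All 72 mitochondrial ribosomal protein rows were at or above 1 FPKM, yet together they held 0.329 ± 0.0156%, against 12.7 ± 1.09% for cytosolic ribosomal proteins (SD, n = 5 each).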
